A study of Mus musculus with 6 samples.

Results

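The 38 genes described here encode the aminoacyl-tRNA synthetases of the mouse and the scaffold proteins that bind them, out of 10551 genes in the deposited count table. They were chosen by name, from a list of enzyme families, and all 38 were in the table. The list holds 20 genes of the cytosolic enzymes, 16 genes of the mitochondrial enzymes, whose symbols end in 2, and the scaffold genes Aimp1 and Aimp2. RNA was sequenced from bone marrow-derived macrophages, cells grown out of marrow progenitors, of C57BL/6J mice. 3 libraries were of control cells and 3 of cells labelled as a macrophage-specific knockout of Dhps (Dhps_delta_Myel). Dhps encodes deoxyhypusine synthase, which catalyses the opening step in making hypusine, an amino acid residue of the translation factor eIF5A. The driver of the deletion, the alleles of the control cells, the age of the mice and any stimulus are not stated in the material used here. The labels leave unsaid whether replicate libraries derive from different mice or cultures, so p-values measure only the spread between these libraries, which may be technical.

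An aminoacyl-tRNA synthetase joins an amino acid to the tRNAs that carry its anticodons, and the charged tRNA then goes to the ribosome. Most amino acids have a cytosolic enzyme and a separate mitochondrial enzyme, both encoded in the nucleus. In the cytosol part of the enzymes sit in a multi-synthetase complex held together by scaffold proteins, and the rest are free. Several cytosolic synthetase genes are known targets of ATF4, the transcription factor of the amino acid response, and the gene of tryptophanyl-tRNA synthetase is known for its induction by interferon gamma in macrophages.

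The libraries held between 11648710 and 16224818 counts. Values are given as CPM, counts per 1000000 counts after scaling of the libraries, and fold changes as Dhps knockout over control. Dhps itself lay at 24.1, 20.9 and 23.4 CPM in the controls and 13.2, 13.6 and 18.3 CPM in the knockouts, lower in each knockout library than in any control library (log2 fold change -0.59, SE 0.14), without passing the threshold (edgeR adjusted p = 0.214). The summed level of 9 of 10 macrophage markers was 22370.5 to 25070.1 CPM in the control libraries and 13386.7 to 15593 CPM in the knockout libraries. Most of it was Lyz2, the lysozyme gene, with means of 18039 and 8765 CPM. Of the 9 measured markers, 7 had a log2 fold change below 0. Lyz2 alone passed the threshold (log2 fold change -1.04, SE 0.10, edgeR adjusted p = 7.2e-05). Fcgr1, an Fc receptor gene, had means of 223 and 177 CPM without overlap (edgeR adjusted p = 0.503). Adgre1 had means of 1512 and 1338 CPM, also without overlap (edgeR adjusted p = 0.802). Csf1r had means of 1093 and 1003 CPM with overlap. The log2 fold changes of the other measured markers were -0.11 (Cd14), -0.01 (Cd68), -0.01 (Spi1), 0.01 (Itgam) and 0.07 (Mertk), all with overlap. In 3 of the 9 every knockout library lay below every control library, where 5.45% of all genes did so. The summed level of 11 of 13 markers of neutrophils and their precursors was 407 to 513 CPM in the controls and 711 to 889 CPM in the knockouts, and that of 4 of 8 stromal markers 4.50 to 7.13 and 8.25 to 13.8 CPM. The remaining markers, among them Ly6g, Retnlg, Col1a1 and Col3a1, were not in the table, nor was any of 7 markers of T, NK and B cells. Of the 11 measured neutrophil markers, 10 had a log2 fold change above 0, and Mmp8 lay at -0.02. Past the threshold, all higher in the knockouts, were 5 of these 11 (Ngp, S100a8, S100a9, Lcn2 and Ltf). Among the 4 measured stromal markers 2 passed, also higher (Col1a2 and Sparc), and Pdgfra lay at -0.08. Over all 10551 genes 0.104% passed. Whether other cells had a part in the values below was not tested. Fewer cells of a type and less RNA per cell cannot be told apart in such libraries.

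The promoters of part of these genes carry the sequence that ATF4 binds together with a C/EBP partner, and they are shown because this element is the best known shared control of the family. RefSeq promoters (GRCm38.p6, 250 bases before to 50 after the start site) were found for 28 of the 38 genes. Cars, Hars, Lars, Mars, Nars, Rars, Vars, Wars, Hars2 and Pars2 had no entry. The element was searched as TGATGNAAN on both strands. It was found in 5 of 12 promoters of cytosolic enzymes (Aars, Gars, Iars, Tars and Yars), in 0 of 14 of mitochondrial enzymes, and in 3.95% of all 32851 promoters. In the sequences below, printed on the strand on which the element reads forward, capitals mark the element.
Aars, chr8:111033699-111033767, minus strand, element 113 bases before the start: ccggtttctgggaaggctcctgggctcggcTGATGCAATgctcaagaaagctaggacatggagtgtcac
Aars, chr8:111033840-111033868, minus strand, element 8 bases after the start: cagagcgctcTGATGAAAAgtgacccgct
Gars, chr6:55037940-55038000, minus strand, element 31 bases before the start: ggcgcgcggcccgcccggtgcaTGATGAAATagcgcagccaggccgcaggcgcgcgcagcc
Iars, chr13:49682126-49682154, minus strand, element 6 bases after the start: cgtctggaggTGATGCAATactgacagtg
Tars, chr15:11399659-11399704, plus strand, element 16 bases before the start: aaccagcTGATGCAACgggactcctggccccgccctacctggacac
Yars, chr4:129189896-129189924, plus strand, element 3 bases after the start: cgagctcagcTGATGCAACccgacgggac
The distance is that of the first base on the strand of the gene. The same promoters were searched for 5 other motifs on both strands. The CCAAT box (CCAAT) was in 14 of 28 promoters, against 37.4% of all, the GC box (GGGCGG) in 20, against 35.7%, and the E-box (CACGTG) in 5, against 7.15%. The cyclic AMP response element (TGACGTCA) and the palindromic NRF1 site were in 0 of 28, against 1.79% and 0.971% of all. A match describes letters and is not a measured site.

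No synthetase or scaffold gene passed the threshold between knockout and control. In edgeR's quasi-likelihood test with Benjamini-Hochberg adjustment over all genes, 0 of 38 had an adjusted p under 0.05, where 0.104% of all 10551 genes did. At an unadjusted p under 0.05 there was 1 of 38, Lars2, against 6.48% of all genes. DESeq2 and limma-voom called 0 members each, and neither gave any member an unadjusted p under 0.05. DESeq2 gave Lars2 no p-value, so it could not call that gene. The log2 fold change was below 0 for 29 of the 38 genes, against 51.3% of all genes, and the median was -0.07, against -0.0044 over all genes. In 4 of 38 genes (Eprs, Gars, Aars2 and Ears2) every knockout library lay below every control library, where 5.45% of all genes did so. In 0 of 38 every knockout library lay above, against 5.73% of all genes.

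**Figure D1:**
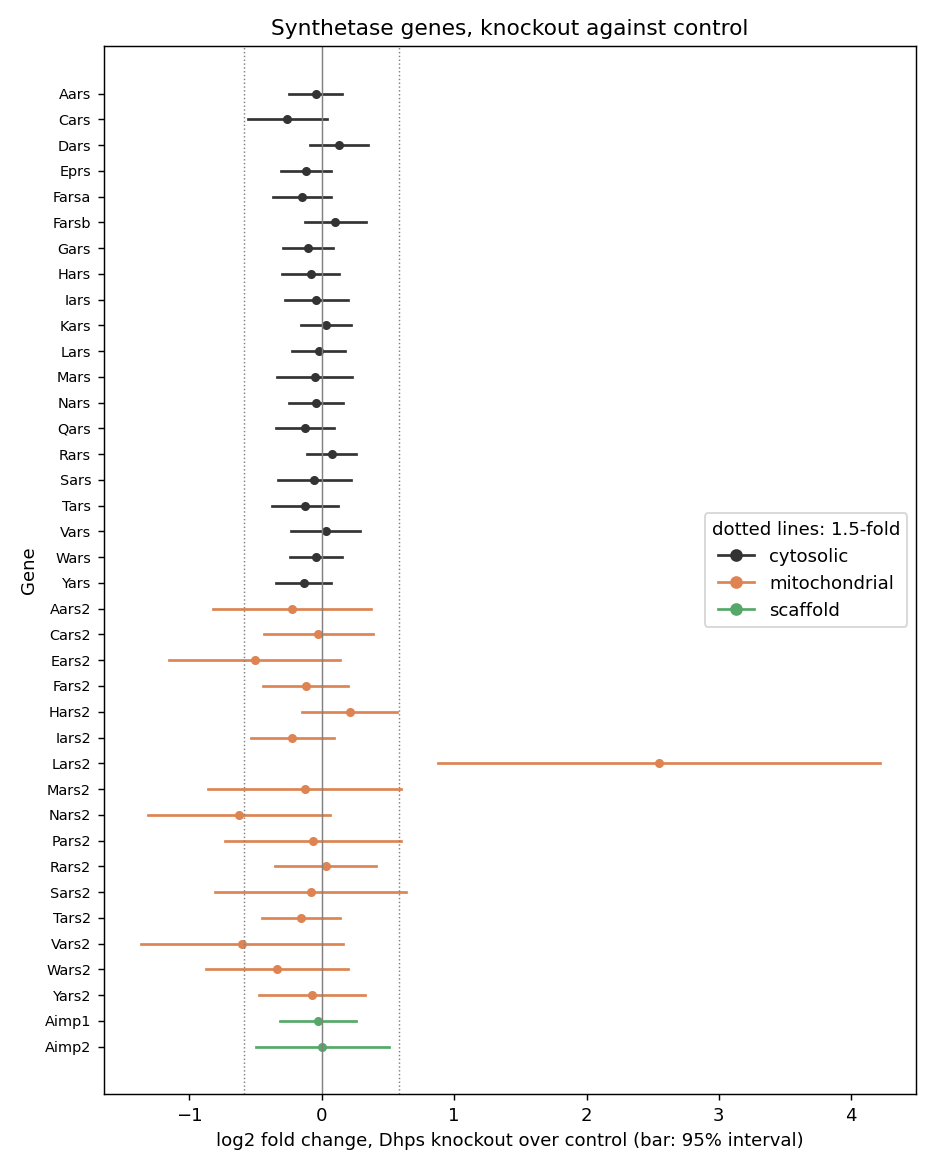
Log2 fold change of Dhps knockout over control (horizontal axis) for the 38 genes (vertical axis), each a point with its 95% interval, and dotted lines at 1.5-fold either way. All 20 cytosolic intervals lie between the dotted lines and include 0, while mitochondrial intervals are wider and Lars2 stands at 2.55.

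Over the 20 cytosolic genes the median log2 fold change was -0.05, from -0.26 (Cars) to 0.13 (Dars), and 15 of them were below 0. The median was -0.093 without control library 3 and -0.087 without knockout library 1. Their 95% intervals all lay inside a 1.5-fold change in either direction. For comparison, the intervals of 7588 of all 10551 genes were that narrow.

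Among the enzymes of the multi-synthetase complex, Eprs, which encodes a fused glutamyl- and prolyl-tRNA synthetase, lay at 95.5, 99.1 and 94.4 CPM in the controls and 94.2, 88.0 and 84.5 CPM in the knockouts. The groups did not overlap, but knockout library 1 reached almost to control library 3, and the log2 fold change was -0.12 (SE 0.09, edgeR adjusted p = 0.900). Rars, for arginine, was the most abundant of the complex, at 117, 121 and 131 CPM in the controls and 129, 129 and 129 CPM in the knockouts (0.07, SE 0.09). The knockout values were inside the control range. Kars, for lysine, which also supplies the mitochondrial enzyme, lay at 85.5, 85.5 and 91.7 CPM against 87.8, 87.9 and 93.2 CPM, a log2 fold change of 0.03 (SE 0.09). Qars, for glutamine, had its lowest value in knockout library 3 and its highest in control library 1, the values being 60.9, 53.7 and 51.8 CPM in the controls and 52.1, 54.7 and 45.7 CPM in the knockouts. Its log2 fold change was -0.13 (SE 0.10). Dars, for aspartate, had the highest log2 fold change among the cytosolic genes, at 31.0, 32.6 and 32.4 CPM in the controls and 31.6, 37.6 and 36.0 CPM in the knockouts (0.13, SE 0.10, edgeR adjusted p = 0.907). Its groups overlapped through knockout library 1. Lars, Iars and Mars, for leucine, isoleucine and methionine, had log2 fold changes of -0.02, -0.04 and -0.05. The 8 enzymes of the complex had a median of -0.03.

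The scaffold genes did not differ beyond the spread between libraries. Aimp1 lay at 18.6, 17.4 and 16.8 CPM in the controls and 15.8, 15.5 and 20.3 CPM in the knockouts, with the highest and the lowest value both in the knockout group (log2 fold change -0.03, SE 0.13). Aimp2 was at 3.50 ± 0.561 CPM in the controls and 3.50 ± 0.290 CPM in the knockouts (SD, n = 3 each). Of the exon bases of Aimp2, 41.1% are also exonic in Eif2ak1 on the opposite strand, and no source used here states how strand was treated in counting, so these reads could belong to either gene. Eef1e1, the remaining scaffold of the complex, which was not on the list of 38, lay at 20.8 ± 1.36 and 20.9 ± 1.70 CPM (SD, n = 3 each).

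Outside the complex, 10 of 12 cytosolic genes were below 0 and the median log2 fold change was -0.07. Wars, for tryptophan, was the most abundant member, at 261, 322 and 285 CPM in the controls and 296, 280 and 265 CPM in the knockouts. The lowest and the highest value were both in control libraries, and the log2 fold change was -0.05 (SE 0.09, 95% interval -0.24 to 0.15). Gars, for glycine, which like Kars also serves mitochondria, lay at 75.0, 71.0 and 73.4 CPM against 67.7, 67.5 and 68.5 CPM. All 3 knockout values were below all control values, by a log2 fold change of -0.11 (SE 0.09, edgeR adjusted p = 0.908). Cars, for cysteine, had the lowest log2 fold change of the cytosolic genes, with 21.4, 15.9 and 23.0 CPM in the controls and 16.7, 16.1 and 17.3 CPM in the knockouts (-0.26, SE 0.14, edgeR adjusted p = 0.835). Control library 2 lay below all 3 knockout libraries, so the groups overlapped, and the log2 fold change was -0.40 without control library 2 and -0.16 without control library 3.

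Phenylalanyl-tRNA synthetase is built from subunits of 2 genes, and their log2 fold changes had opposite signs, neither past the threshold. Farsa lay at 67.4, 56.4 and 53.0 CPM in the controls and 53.4, 52.3 and 53.5 CPM in the knockouts (-0.15, SE 0.10). Control library 1 stood above the other 5 libraries, which lay close together, and without it the log2 fold change was -0.05. Farsb lay at 24.1, 22.8 and 23.1 CPM against 26.1, 23.8 and 25.1 CPM (0.10, SE 0.11). 10.4% of its exon bases are also exonic in Sgpp2 on the opposite strand. Sars, for serine, showed no order by genotype, with 34.2, 33.0 and 26.6 CPM against 36.0, 26.4 and 28.0 CPM. Of the remaining genes, Yars (-0.14) and Tars (-0.13), for tyrosine and threonine, came next to Farsa on the lower side, Vars, for valine, was at 0.03, and Hars, Aars and Nars, for histidine, alanine and asparagine, ranged from -0.08 to -0.04. The 5 genes with the ATF4 element in the promoters shown above had log2 fold changes of -0.05 (Aars), -0.11 (Gars), -0.04 (Iars), -0.13 (Tars) and -0.14 (Yars), all below 0 and none past the threshold. Below 0 lay 15 of all 20 cytosolic genes, and promoters of only 12 of the 20 were searched.

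Of the 16 mitochondrial genes 13 were below 0, and their median log2 fold change was -0.13. They were measured with fewer reads, with a median of 71 counts per gene and library against 647.5 for the cytosolic genes, and their median SE was 0.27 against 0.10. The 95% interval lay inside a 1.5-fold change for 7 of 16 and inside a 2-fold change for 12 of 16. The remaining intervals reached beyond 2-fold.

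Lars2, the mitochondrial leucyl-tRNA synthetase gene, stood apart from all other members through 1 library. It lay at 42.9, 15.4 and 14.0 CPM in the controls and 382, 24.6 and 18.0 CPM in the knockouts. Knockout library 1, with 5551 counts, was 8.90 times as high as the next library, control library 1, and the other 4 libraries lay between 14.0 and 24.6 CPM. The fitted log2 fold change of 2.55 (SE 0.79, edgeR adjusted p = 0.462) was the largest of the members. Without knockout library 1 it was -0.19 (edgeR adjusted p = 0.961), and DESeq2 gave the gene no p-value. No other gene of the table exceeded the highest of the other 5 libraries by as large a factor in any library; the next was Agbl5, 5.50 times in control library 1. Lars2 lies at chromosome 9, 123366940 to 123462664 (mm10, plus strand), its last exon being number 21, and none of its exon bases are exonic in another annotated gene.

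The cytosolic partner Lars did not share this pattern, with 69.2, 64.0 and 72.3 CPM in the controls and 62.2, 69.8 and 70.0 CPM in the knockouts, and was lowest in knockout library 1. The library order of Lars2 (knockout 1, control 1, knockout 2, knockout 3, control 2, control 3) was shared by 41 of the 10551 genes, Lars2 included. After Lars2, with a highest value 27.3 times the lowest, the steepest was Mir6236, an annotated microRNA gene elsewhere on chromosome 9, at 7.00, 2.12 and 1.04 CPM in the controls and 13.7, 2.79 and 2.33 CPM in the knockouts. Next to Lars2 among the genes that stood out in knockout library 1 was the histone gene Hist1h1c, at 154 CPM there and 40.1 to 51.4 CPM in the other 5. Rpph1, the RNA subunit of RNase P, which trims the 5′ end of tRNA precursors, lay at 6560, 3467 and 4905 CPM in the controls and 5264, 4528 and 3611 CPM in the knockouts. These 3 genes were chosen after their values were seen. In the reference transcripts of the same assembly (GENCODE), Lars2 shares 25-base runs with transcripts of 2 other genes, AA474408 (44 runs) and Gm15564 (28 runs), between bases 3172 and 3329 of its 3894-base transcript. Reads from that stretch could be split between these genes. Lars2 shares none with the 356 transcripts annotated as ribosomal RNA in that reference. Ribosomal RNA sequence outside that annotation was not compared, so reads from it were not tested. The part of the transcript from which the reads of knockout library 1 came was not tested, since the table holds 1 count per gene.

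**Figure D2:**
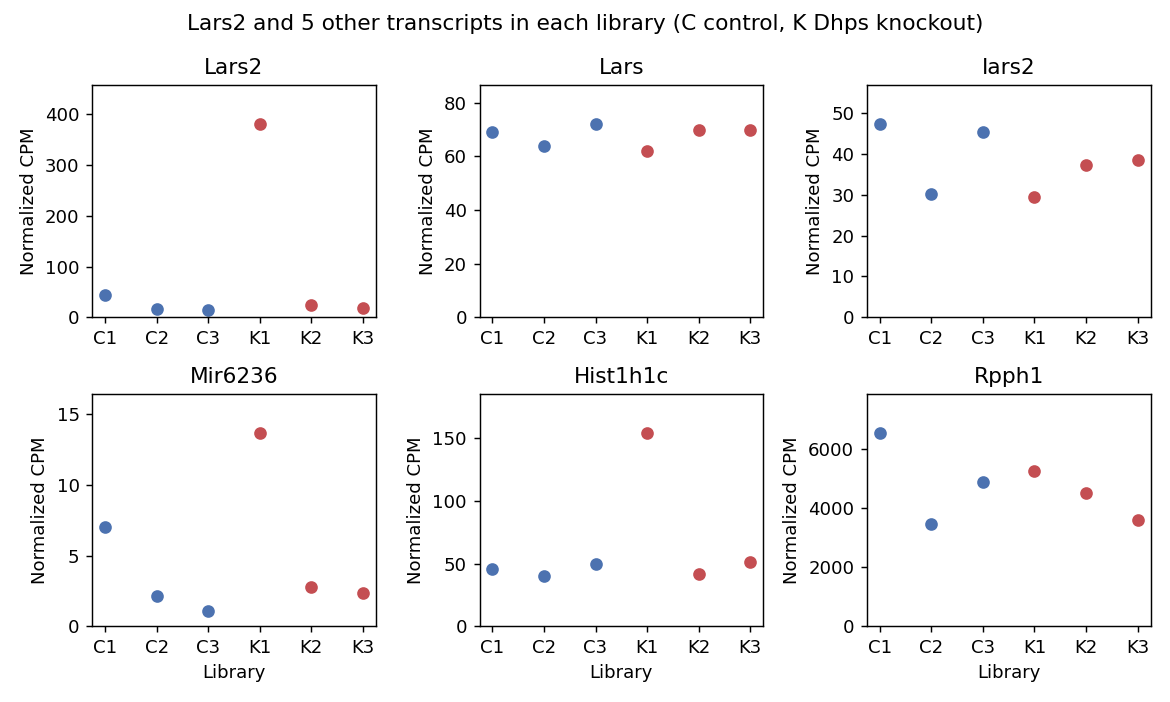
Normalized CPM (vertical axes, each from 0) of Lars2, Lars, Iars2, Mir6236, Hist1h1c and Rpph1 in the 6 libraries (C control, K Dhps knockout; 1 point a library). Lars2 reaches 382 CPM in knockout library 1 and at most 42.9 CPM elsewhere, while Lars lies between 62.2 and 72.3 CPM throughout.

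Iars2, for isoleucine, was the other abundant mitochondrial member, at 47.4, 30.2 and 45.4 CPM in the controls and 29.4, 37.2 and 38.4 CPM in the knockouts. Control library 2 was nearly as low as knockout library 1, and the log2 fold change was -0.22 (SE 0.15, edgeR adjusted p = 0.876). Leaving out control library 2 gave -0.40, leaving out control library 1 or 3 gave -0.10 or -0.15, and leaving out knockout library 1 gave -0.11. Tars2, for threonine, lay at 17.4, 13.9 and 14.6 CPM against 13.8, 12.4 and 14.8 CPM (-0.16, SE 0.14), and Fars2, for phenylalanine, at 10.2, 9.45 and 10.3 CPM against 9.77, 9.61 and 8.22 CPM (-0.12, SE 0.15). Hars2, for histidine, was the mitochondrial member with the highest log2 fold change after Lars2, at 7.85, 6.56 and 7.30 CPM against 8.05, 7.75 and 9.26 CPM (0.21, SE 0.17, edgeR adjusted p = 0.908). Its groups overlapped through control library 1. Hars2 and Hars lie head to head on opposite strands, and 195 exon bases of Hars are also exonic in Hars2 in GENCODE. Rars2, Cars2 and Yars2, for arginine, cysteine and tyrosine, had log2 fold changes of 0.03, -0.03 and -0.07, and 20.6% of the exon bases of Cars2 are shared with Naxd on the opposite strand.

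The lowest log2 fold changes belonged to genes with few reads. Nars2, for asparagine, lay at 3.50, 2.06 and 5.13 CPM in the controls and 2.68, 1.78 and 2.33 CPM in the knockouts (-0.62, SE 0.33, edgeR adjusted p = 0.834). Control library 2 was inside the knockout range, and the log2 fold change was -0.28 without control library 3. Vars2, for valine, lay at 2.78, 1.93 and 2.43 CPM against 1.10, 2.56 and 1.10 CPM (-0.61, SE 0.36, edgeR adjusted p = 0.861), with knockout library 2 among the controls. Its log2 fold change was -1.10 without knockout library 2, -0.40 without knockout library 1 and -0.39 without knockout library 3. Ears2, for glutamate, lay at 2.43, 2.57 and 2.78 CPM against 2.34, 1.24 and 1.84 CPM. Every knockout library was below every control library, with 16 to 40 counts behind each value (-0.51, SE 0.30, edgeR adjusted p = 0.861), and the log2 fold change was -0.31 without knockout library 2. Aars2, for alanine, also had no overlap, with 2.14, 2.31 and 2.43 CPM against 1.99, 1.86 and 2.02 CPM on 24 to 36 counts (-0.22, SE 0.28). Wars2, for tryptophan, was at -0.34 (SE 0.25), at -0.14 without control library 2 and at -0.55 without control library 3. Mars2, Sars2 and Pars2, for methionine, serine and proline, lay between -0.13 and -0.07 with SE of 0.34, 0.34 and 0.31.

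The cytosolic enzyme was the more abundant transcript for most amino acids. To compare genes, levels were taken per length, as CPM per 1000 bases of the deposited exon length. On that scale the cytosolic genes had a median level of 17.4 and the mitochondrial genes of 1.70. Of 13 amino acids with a single cytosolic gene and a mitochondrial partner on the list, the cytosolic level was above the mitochondrial in all 6 libraries for 11. The ratio of levels was widest for tryptophan, where Wars lay at 98.8 and Wars2 at 0.906 per 1000 bases, with ratios from 82.9 to 147 over the libraries. It was closest to even among these 11 for cysteine, with a ratio of Cars to Cars2 of 1.64 to 2.50, followed by threonine at 2.22 to 2.96 and tyrosine at 3.18 to 4.12. Isoleucine was reversed in every library. Iars lay at 5.56 and Iars2 at 10.7 per 1000 bases, with a ratio of 0.424 to 0.657. For leucine the cytosolic enzyme was above in all libraries but knockout library 1, where the ratio of Lars to Lars2 was 0.166. Within the cytosolic group Wars was followed by Rars at 59.1, Kars at 38.8, Farsa at 30.6 and Gars at 29.5 per 1000 bases. The least abundant per length were Mars at 4.56, Iars at 5.56, Vars at 5.65 and Cars at 5.71.

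**Figure D3:**
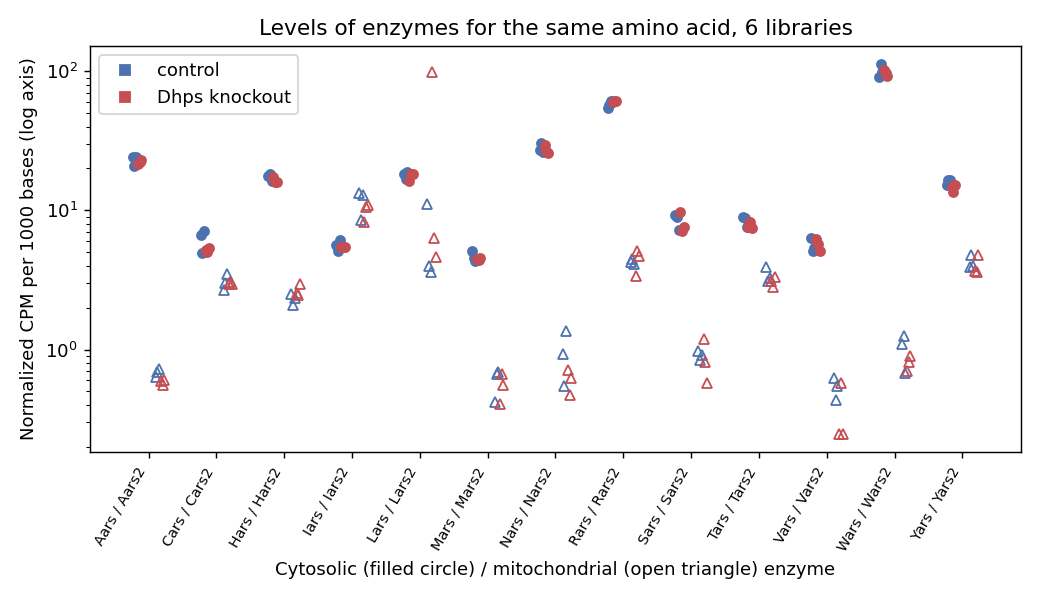
Levels in CPM per 1000 bases (log axis) of the cytosolic (filled circles) and mitochondrial (open triangles) enzyme for 13 amino acids, 1 point a library, control in blue and Dhps knockout in red. Circles lie above triangles except for isoleucine and, in knockout library 1, leucine, and the colours overlap for most genes.

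The small offset to the lower side was spread over the libraries. The deviation of each gene from its own mean over the 6 libraries, on the log2 CPM scale, had a median over the cytosolic genes of 0.06, -0.0011 and -0.01 in control and -0.02, -0.02 and -0.05 in knockout libraries. Control library 1 was the highest. Control libraries 2 and 3, both just below 0, lay closer to knockout library 1 than to control library 1. Over the 15 mitochondrial genes other than Lars2 the medians were 0.09, 0.05 and 0.11 in control and -0.06, -0.09 and -0.0094 in knockout libraries. Over all genes they ranged from 0.00060 to 0.0071. Of the 38 members, 12 had their highest value in control library 3 and 10 in control library 1, and 12 had their lowest value in knockout library 2. Of all 10551 genes, 1596 were highest in control library 3, 2180 were highest in control library 1 and 1778 were lowest in knockout library 2. These medians describe the listed genes, which are not replicates, and carry no test.

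**Figure D4:**
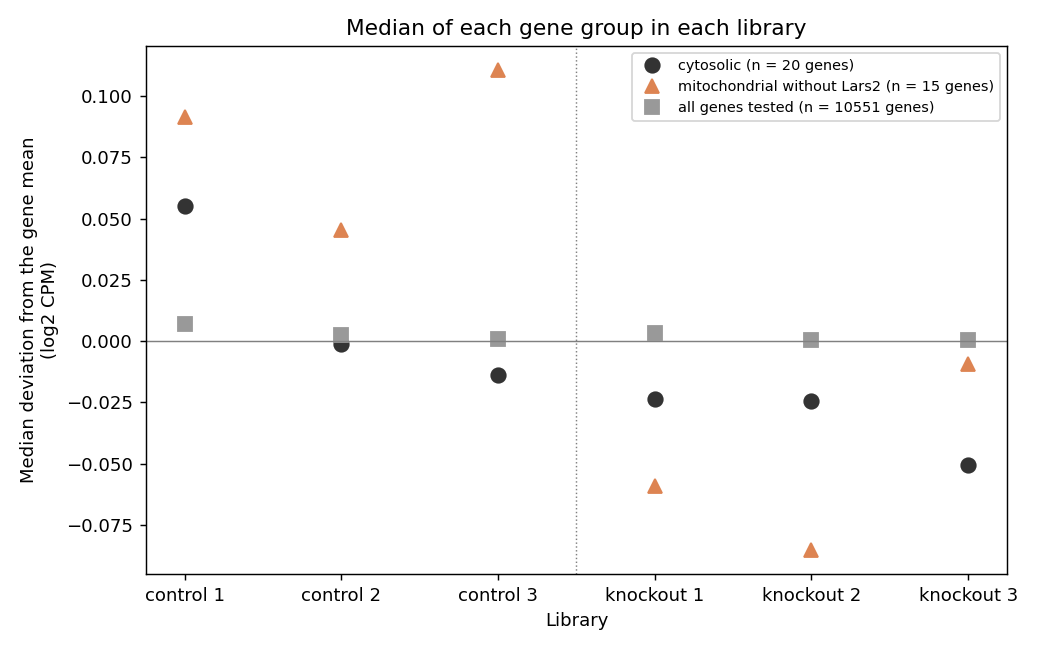
Median deviation of genes from their mean over the libraries (log2 CPM, vertical axis) in each library, for the 20 cytosolic genes, the 15 mitochondrial genes without Lars2 and all 10551 genes. The medians of both synthetase groups are below 0 in the 3 knockout libraries, down to -0.05 for the cytosolic and -0.09 for the mitochondrial genes, and the highest is 0.11, in control library 3. The cytosolic median is also just below 0 in control libraries 2 and 3 (-0.0011 and -0.01).

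Genes of 5 lists around the synthetases did not pass either, in edgeR, DESeq2 or limma-voom. At an unadjusted p under 0.05 in edgeR there were 2 of tRNA maturation, 1 of RNA polymerase III, 1 of the amino acid response and 0 of the other lists. These are 3.45%, 4.76% and 5.88% of the measured genes of their lists, below the 6.48% of all genes. Of 14 measured genes for related steps of charging 0 passed, with a median log2 fold change of -0.06. These include Tarsl2 (-0.05), a further synthetase gene, and Gatb (-0.07) and Gatc (0.46), subunits of the amidotransferase that makes mitochondrial glutaminyl-tRNA. The smallest p belonged to Ptrh2 (-0.41) and Dtd2 (-0.45), which release or proofread mischarged or stalled tRNA, and to Qrsl1 (0.52), the catalytic subunit of that amidotransferase. Of 13 factors that deliver charged tRNA or serve mitochondrial translation 0 passed (median -0.08). Eef1a1, which carries charged tRNA to the cytosolic ribosome, lay at 3931 ± 147 CPM in the controls and 3655 ± 229 CPM in the knockouts (SD, n = 3 each, log2 fold change -0.11, SE 0.09), and Tufm, its mitochondrial counterpart, had a log2 fold change of -0.08. The smallest p there belonged to Mtrf1 (0.58), Eef1d (-0.15) and Mtrf1l (-0.32).

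Of 58 measured genes of tRNA maturation, export and modification 0 passed, with a median of -0.04. Those with the smallest p were Rpp25l (-0.44, edgeR adjusted p = 0.737), a protein of RNase P, Tsen34 (-0.27, edgeR adjusted p = 0.749), of the tRNA splicing endonuclease, and Thg1l (0.45, edgeR adjusted p = 0.835), of the histidine tRNA guanylyltransferase. Of 21 genes of RNA polymerase III, which transcribes tRNA genes, and its factors, 0 passed, 16 were below 0 and the median was -0.08. Polr3e (-0.34), Gtf3c3 (-0.17) and Maf1 (-0.12), the latter a repressor of the polymerase, had the smallest p. The 17 measured genes of the amino acid response had a median of 0.10 with 0 past the threshold. In this list Trib3 (1.06, edgeR adjusted p = 0.663), Atf4 (-0.20, edgeR adjusted p = 0.780) and Slc7a5 (-0.59) had the smallest p, and Asns, the asparagine synthetase gene and an ATF4 target like many cytosolic synthetases, lay at 4.14, 4.76 and 3.83 CPM in the controls and 5.16, 4.42 and 4.11 CPM in the knockouts (0.10, SE 0.21).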

How the data were processed

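The authors deposited whole-number counts of reads per gene for 6 libraries, not normalized, beside exon positions and a length per gene. Per the submitters' processing notes, mm10, Subread 1.5.0, featureCounts, STAR 2.4.2a and edgeR were used, in roles and an order that are not stated. The sources used here do not give the annotation or the strand setting. The third highest value of each of the 10551 genes exceeds 1 CPM, so that the table looks filtered at that level. 17 symbols have the form of dates. Counts were scaled by TMM and tested with edgeR 4.0.16 in R 4.3.3 (quasi-likelihood, two-sided, genotype only, Benjamini-Hochberg over all genes, adjusted p under 0.05). 0 genes were removed by filterByExpr (minimum count 10). SE is the log2 fold change over the square root of F. The fit was tested on simulated data with the same relative spread for every gene. Genes that vary more, such as Lars2, were not represented there. DESeq2 1.42.0 and limma 3.58.1 were alternatives. Log2 CPM used a prior count of 2. Exon overlaps and transcripts came from GENCODE of the same assembly. The members and lists were chosen with earlier results of these data known. Named were all members, Dhps, and from each related list the 3 genes with the smallest p. The other genes named were chosen after their values were seen.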

Additional observations from a re-analysis of the deposited data

How the results depend on the processing

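The count of 0 synthetase genes called held with other size factors, without them, and with no filter or a stricter filter. It also held with limma-voom, at an adjusted p under 0.1, with each library left out, and with DESeq2, which gave Lars2 no p-value. The count was 1 at an unadjusted p under 0.05, and 1 with the replicate number as a block, Lars2 in both. In the fit with the replicate block Lars2 had a log2 fold change of 1.63 and an adjusted p of 0.027, Dhps a log2 fold change of -0.61 and an adjusted p of 0.033, and 35 genes of the table were called. Same-numbered libraries share only a number, as far as the labels go: deviations of same-numbered libraries correlated at 0.139, 0.019 and 0.148 across genes, and control library 2 did not correlate best with its own number. The count over all genes, 11 in the fit reported, was 22 with DESeq2 and ranged from 4 (without control library 2) to 19 (without control library 1), with 7 without control library 3; the cause was not tested. With 1 library left out the cytosolic median ranged from -0.093 to -0.040, the mitochondrial median from -0.18 to -0.12, and the log2 fold change of Lars2 from -0.19 (without knockout library 1) to 3.26. Over all alternatives, 29 of 494 values of members changed sign, in 16 of the 38 genes, and of these only Lars2 had an unadjusted p under 0.05 in either fit compared. Single libraries also moved the log2 fold changes of many other members by over 1.5 times. Among them were Aars, Dars, Eprs, Hars, Qars, Rars, Fars2, Hars2 and Tars2, none of them called. Depth limits the mitochondrial genes, of which several rest on fewer than 40 counts a library.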

Other observations

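The factor by which 1 library exceeded the highest of the other 5 was 8.90 for Lars2 in knockout library 1. The gene with the largest such factor in each of the other libraries was Agbl5 in control library 1 (5.50), Spata24 in control library 2 (4.20), Wdyhv1 in control library 3 (2.70), Retnla in knockout library 2 (3.62) and Ctgf in knockout library 3 (2.54). None of these genes passed the threshold between the groups in edgeR's test, and each value rests on 1 library.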
